A study of Mus musculus with 6 samples.

Results

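The genes described here were 10 of the 54134 genes in a table of read counts from mouse tailbuds. They were 6 keratins (Krt36, Krt8, Krt18, Krt19, Krt5 and Krt14) and 4 transcription factors of the surface ectoderm (Trp63, Grhl2, Grhl3 and Tfap2a). They were chosen with results of the same comparison of genotypes known, so their differences between the groups are given as a description and support nothing further.

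RNA was sequenced from 6 tailbuds of C57BL/6 embryos at E10.5, where a tailbud was all tissue behind the last somite, with 1 library per embryo. The 2 Cdx2P:Nr6a1 embryos were transient transgenics made by pronuclear injection, carrying the coding sequence of the long Nr6a1 isoform under a Cdx2 promoter. The 4 wildtype embryos carried no transgene. The comparison asked which genes differ in a tailbud in which Nr6a1, an orphan nuclear receptor, is kept at a raised level. No stable line was available, so each transgenic embryo was a separate integration event and the transgene can act only where the Cdx2 promoter is active.

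Keratins form the intermediate filaments of epithelial cells, and each filament needs a type I and a type II partner. Krt8 with Krt18, often joined by Krt19, make the filaments of simple epithelia such as the early surface ectoderm and the gut lining, whereas Krt5 with Krt14 mark the basal cells of stratified epithelia and Krt36 is a type I hair keratin. Trp63 encodes p63, which commits surface ectoderm to an epidermal fate, Grhl2 and Grhl3 encode grainyhead-like factors needed for epithelial integrity and closure of the caudal neural tube, and Tfap2a encodes AP-2 alpha.

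The sequence before the start site is shown for the 3 members that differed most between the groups, in units of their standard error. Krt8 and Krt18 are neighbours and filament partners, and Krt36 is the member that was lower. The bases come from the promoter table of RefSeq for GRCm38.p6, run 5′ to 3′ on the strand of the gene, and stop before the first exon base in the deposited annotation. For Krt8 and Krt18 the RefSeq start site lies inside the first deposited exon, so their stretches are shorter and positions are counted from the RefSeq start. They cover chr15:102004483-102004592 on the minus strand for Krt8, chr15:102027966-102028179 on the plus strand for Krt18 and chr11:100105627-100105876 on the minus strand for Krt36. Capitals mark the nuclear receptor binding sequence AGGTCA and, in Krt18 only, also the AP-2 sequence GCCNNNGGC.
Krt8: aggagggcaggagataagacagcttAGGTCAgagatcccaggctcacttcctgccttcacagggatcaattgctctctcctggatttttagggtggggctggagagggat
Krt18: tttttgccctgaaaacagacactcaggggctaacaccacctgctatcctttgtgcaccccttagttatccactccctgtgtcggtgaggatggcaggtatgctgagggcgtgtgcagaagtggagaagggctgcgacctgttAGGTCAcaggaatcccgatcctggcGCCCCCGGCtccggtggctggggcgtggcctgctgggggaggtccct
Krt36: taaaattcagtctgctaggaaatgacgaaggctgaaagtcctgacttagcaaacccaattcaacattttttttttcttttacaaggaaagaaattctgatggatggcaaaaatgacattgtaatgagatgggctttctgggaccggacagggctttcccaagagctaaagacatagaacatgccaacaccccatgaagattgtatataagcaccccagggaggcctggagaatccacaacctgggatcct

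Among the 7 members with an entry in that table, AGGTCA on either strand began at -225 from the start site of Krt8, at -108 from that of Krt18 and at 34 bases past that of Krt5, within windows of 250 bases before and 50 bases after the start. The same letters occurred in 16.3% of 32851 promoters of 300 bases. GCCNNNGGC occurred in Krt18, at -83, and in 16.6% of all promoters, and it reads the same on both strands. The longer nuclear receptor sequence TCAAGGTCA (0.423% of all promoters), which contains AGGTCA, and the grainyhead sequence AACCGGTT (0.146%) occurred in none of the 7. The printed stretches were 53.6% GC for Krt8, 60.7% for Krt18 and 42.8% for Krt36, where the median over all promoters was 52.4% in the 250 bases before the start. Krt19, Trp63 and Grhl2 had no entry. A match of letters is a description and not a measured binding site.

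Library totals lay between 44073460 and 67183802 counts. The level of a gene is given as CPM, its count scaled to the size of the library after TMM normalization. Nr6a1 was at 3.94 to 6.90 CPM in wildtype and at 23.2 and 33.8 CPM in the Cdx2P:Nr6a1 libraries, a log2 difference of 2.41 ± 0.20 (SE) with an adjusted p of 0.00132 by edgeR's quasi-likelihood test with Benjamini-Hochberg adjustment. Tailbud genes were present in every library, with T at 887 to 1190 CPM and Tbx6 at 207 to 275 CPM. A gene was called at an adjusted p under 0.05, which 203 of 12733 genes tested reached (1.59%), 100 of them higher (0.785%) and 103 lower (0.809%) in Cdx2P:Nr6a1. At an unadjusted p under 0.05, 5.54% of genes tested were higher and 4.99% lower. Unless another tool is named, a call is by edgeR's quasi-likelihood test over all 6 libraries. Of all genes tested, 9.46% had the pair of transgenic libraries higher than the whole wildtype range and 9.08% had it lower.

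All 10 members passed the filter on low counts. Krt36 passed only through the wildtype libraries, since it was below the CPM minimum of 2 in both transgenic ones. The pair of transgenic libraries was higher than the whole wildtype range for 3 members (Krt8, Krt18 and Grhl2), lower for 1 (Krt36) and overlapped it for 6. Fold changes were positive for 8 members and negative for 2, with a median log2 difference of 0.21 beside -0.001 over all genes tested. Of the 10, Krt18 was called higher and Krt36 lower, and since the members were chosen on this contrast nothing is read from that count. In bulk tissue, fewer cells of a type and less RNA per cell cannot be told apart.

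**Figure D1:**
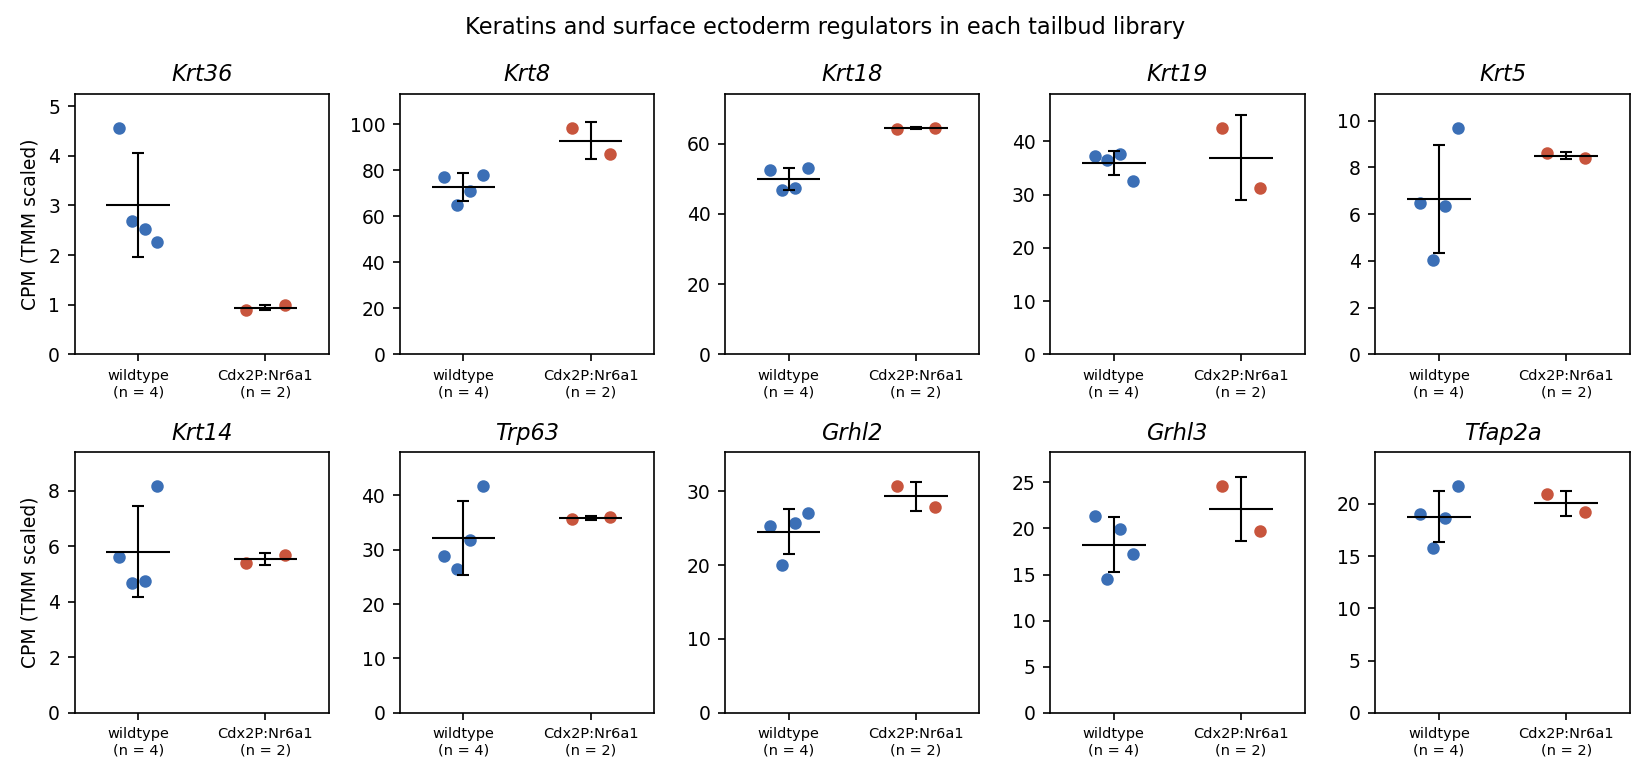
Level of each of the 10 genes in CPM (linear axes that start at 0), with a point per library, a horizontal line at the group mean and bars of 1 SD (n = 4 wildtype, n = 2 Cdx2P:Nr6a1). Both Cdx2P:Nr6a1 points lie above all wildtype points for Krt8, Krt18 and Grhl2 and below them for Krt36.

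In wildtype tailbuds the keratins of simple epithelia were the most abundant members. Per kb of exon, Krt8 was at 37.1 CPM, Krt18 at 34.8 CPM and Krt19 at 19.4 CPM on the mean of 4 libraries. The ranges of Krt8 (33.1 to 39.7 CPM per kb) and Krt18 (32.6 to 36.9) overlapped, whereas that of Krt19 (17.6 to 20.3) lay below both. Grhl3 came next at 6.54 CPM per kb (5.21 to 7.62), apart from its neighbours on either side. The remaining 6 followed in the order Trp63 (3.83), Tfap2a (3.83), Krt14 (3.30), Krt5 (3.02), Grhl2 (2.85) and Krt36 (1.80 CPM per kb), and each of these overlapped the next in range. In the Cdx2P:Nr6a1 libraries Krt8 and Krt18 again led, at 47.4 and 44.8 CPM per kb, and Krt36 was last at 0.564 CPM per kb. Exon lengths join all isoforms, so the level per length of Trp63 (8391 exon bases) and Grhl2 (8613) is understated where a shorter isoform is the one expressed.

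Krt8, the type II keratin of simple epithelia, lies at chr15:101996698-102004482 on the minus strand. Its levels were 77.1, 64.8, 71.0 and 77.7 CPM in wildtype replicates 1 to 4 and 98.5 and 87.1 CPM in Cdx2P:Nr6a1 replicates 1 and 2. Both transgenic libraries were higher than all 4 wildtype libraries. The means were 72.6 ± 6.03 (SD, n = 4) and 92.8 ± 8.09 CPM (SD, n = 2), a log2 difference of 0.35 ± 0.08 (SE). The quasi-likelihood test did not call the gene, while DESeq2 and the likelihood ratio test did, as did the fit without the filter on low counts. Of its 75-base windows, 23.5% occur also in other transcripts, among them Krt8-ps and Gm36026, so part of its count rests on how shared reads were assigned.

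Krt18, the type I partner of Krt8, lies at chr15:102028180-102032027 on the plus strand. It was the only type I keratin on chromosome 15 in the table, where 26 type II keratins lie, while the other 27 type I keratins lie on chromosome 11. Its levels were 52.4, 46.9, 47.5 and 53.1 CPM in wildtype and 64.2 and 64.6 CPM in Cdx2P:Nr6a1. The groups did not overlap, and the transgenic libraries differed from each other by less than the wildtype libraries did. The means were 49.96 ± 3.21 (SD, n = 4) and 64.4 ± 0.248 CPM (SD, n = 2), and the log2 difference of 0.37 ± 0.06 (SE) was called. Without wildtype replicate 2 or 3 the log2 difference was 0.34 and it was not called, nor was it without Cdx2P:Nr6a1 replicate 1 (0.37) or 2 (0.36).

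The ratio of the partners stayed between 0.99 and 1.13 over the 6 libraries. Krt8 over Krt18, both per length, was 1.08, 1.01, 1.10 and 1.07 in wildtype and 1.13 and 0.99 in Cdx2P:Nr6a1. The transgenic libraries had the highest and the lowest ratio, on either side of the wildtype range. Krt8 was the highest of the 6 libraries in Cdx2P:Nr6a1 replicate 1 and Krt18 in replicate 2, and both were lowest in wildtype replicate 2.

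Krt19, a type I keratin that lacks the tail domain, lies at chr11:100140810-100148665 on the minus strand. Its levels were 37.2, 36.5, 37.6 and 32.6 CPM in wildtype and 42.6 and 31.3 CPM in Cdx2P:Nr6a1. The transgenic libraries were the highest and the lowest of the 6, on either side of the wildtype range. The means were 36.0 ± 2.27 (SD, n = 4) and 37.0 ± 7.98 CPM (SD, n = 2), with a log2 difference of 0.03 ± 0.11 (SE), not called. Its sign turned with single libraries, to -0.20 without Cdx2P:Nr6a1 replicate 1 and to -0.02 without wildtype replicate 4.

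Krt36, the hair keratin, lies at chr11:100102007-100105626 on the minus strand. It was counted 223, 150, 141 and 102 times in wildtype and 40 and 66 times in Cdx2P:Nr6a1, and counting alone gives these values a coefficient of variation of 6.70% to 15.8%. As levels these were 4.57, 2.68, 2.52 and 2.27 CPM in wildtype and 0.901 and 0.984 CPM in Cdx2P:Nr6a1. Both transgenic libraries were below every wildtype library, and wildtype replicate 1 was well above the other wildtype libraries. The means were 3.01 ± 1.05 (SD, n = 4) and 0.943 ± 0.0581 CPM (SD, n = 2), and the log2 difference of -1.67 ± 0.32 (SE) was called. A gene that passes the filter through the wildtype libraries alone, as here, could hardly be other than lower in Cdx2P:Nr6a1, so the call is a description. Without wildtype replicate 1 it was -1.40 and still called, while without wildtype replicate 2 (-1.72) or Cdx2P:Nr6a1 replicate 1 (-1.61) or 2 (-1.73) it was not. No 75-base window of Krt36 occurs in another transcript, so shared reads do not enter its count.

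Krt5 and Krt14, the pair of the basal layer, were both low. Krt5, the type II partner at chr15:101707070-101712898 on the minus strand, was counted 316, 227, 354 and 436 times in wildtype and 381 and 563 times in Cdx2P:Nr6a1. That is 6.48, 4.05, 6.33 and 9.70 CPM against 8.59 and 8.39 CPM, and the transgenic libraries lay inside the wildtype range. The log2 difference was 0.36 ± 0.26 (SE), not called, and it was 0.18 without wildtype replicate 2 and 0.59 without wildtype replicate 4. Of its 75-base windows 7.77% occur in other transcripts, those of Krt6a and Krt6b included.

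Krt14, the type I partner at chr11:100203162-100207548 on the minus strand, was counted 274, 262, 265 and 367 times in wildtype and 239 and 381 times in Cdx2P:Nr6a1. Its levels were 5.62, 4.68, 4.74 and 8.17 CPM in wildtype and 5.39 and 5.68 CPM in Cdx2P:Nr6a1, again inside the wildtype range. The log2 difference was -0.06 ± 0.22 (SE), not called, and without wildtype replicate 4 it was 0.14. Krt5 over Krt14, both per length, was 0.923, 0.693, 1.07 and 0.951 in wildtype and 1.28 and 1.18 in Cdx2P:Nr6a1, so both transgenic libraries had the higher ratio although neither gene was called.

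Trp63, at chr16:25683763-25892102 on the plus strand, was at 28.8, 26.4, 31.7 and 41.7 CPM in wildtype and at 35.6 and 36.0 CPM in Cdx2P:Nr6a1. The transgenic libraries were nearly equal and lay below wildtype replicate 4 alone. The log2 difference was 0.16 ± 0.15 (SE), not called, and ran from 0.07 without wildtype replicate 2 to 0.30 without wildtype replicate 4. Krt5, a target of p63 in epidermis, stood at a ratio to Trp63 of 0.153 to 0.232 in wildtype and of 0.241 and 0.233 in Cdx2P:Nr6a1, and the same ratio for Krt14 overlapped between the groups.

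Grhl2, at chr15:37233036-37363569 on the plus strand, was at 25.3, 20.04, 25.7 and 27.1 CPM in wildtype and at 30.7 and 27.9 CPM in Cdx2P:Nr6a1. Both transgenic libraries were above all wildtype libraries, replicate 2 only narrowly. The log2 difference of 0.26 ± 0.11 (SE) was not called, and was 0.17 without wildtype replicate 2.

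Grhl3, the factor whose loss leads to spina bifida and a curled tail, lies at chr4:135541888-135573630 on the minus strand. It was at 21.3, 14.5, 19.96 and 17.2 CPM in wildtype and at 24.6 and 19.7 CPM in Cdx2P:Nr6a1. Cdx2P:Nr6a1 replicate 1 was the highest library and replicate 2 lay among the wildtype libraries. The log2 difference of 0.28 ± 0.15 (SE) was not called, and ran from 0.12 without Cdx2P:Nr6a1 replicate 1 to 0.43 without replicate 2.

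Tfap2a, at chr13:40715302-40738376 on the minus strand, was at 19.0, 15.8, 18.6 and 21.7 CPM in wildtype and at 20.9 and 19.2 CPM in Cdx2P:Nr6a1, inside the wildtype range. Its log2 difference of 0.09 ± 0.12 (SE) was not called, and ran from 0.02 without wildtype replicate 2 to 0.16 without wildtype replicate 4. Opposite-strand genes share up to 7.75% of its exon bases. Reads on bases that exons of both strands share appear not to have been counted, since 0 of 481 genes lying wholly under opposite-strand exons had more than 10 counts over the 6 libraries, against 37.5% of 42762 genes under no other gene.

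The wildtype embryos differed in each of these genes more than in the median gene. The coefficient of variation over the 4 wildtype libraries was 35.0% for Krt36 and for Krt5, 28.2% for Krt14 and 20.96% for Trp63, and between 6.30% and 16.5% for the other 6, while its median over all genes tested was 5.84%. Wildtype replicate 2 was the lowest wildtype library for 8 of the 10 and wildtype replicate 4 the highest for 7. Krt36 had its own order, highest in replicate 1 and lowest in replicate 4. These embryos are separate animals dissected by a somite boundary, and how much epithelium each tailbud held was not measured.

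**Figure D2:**
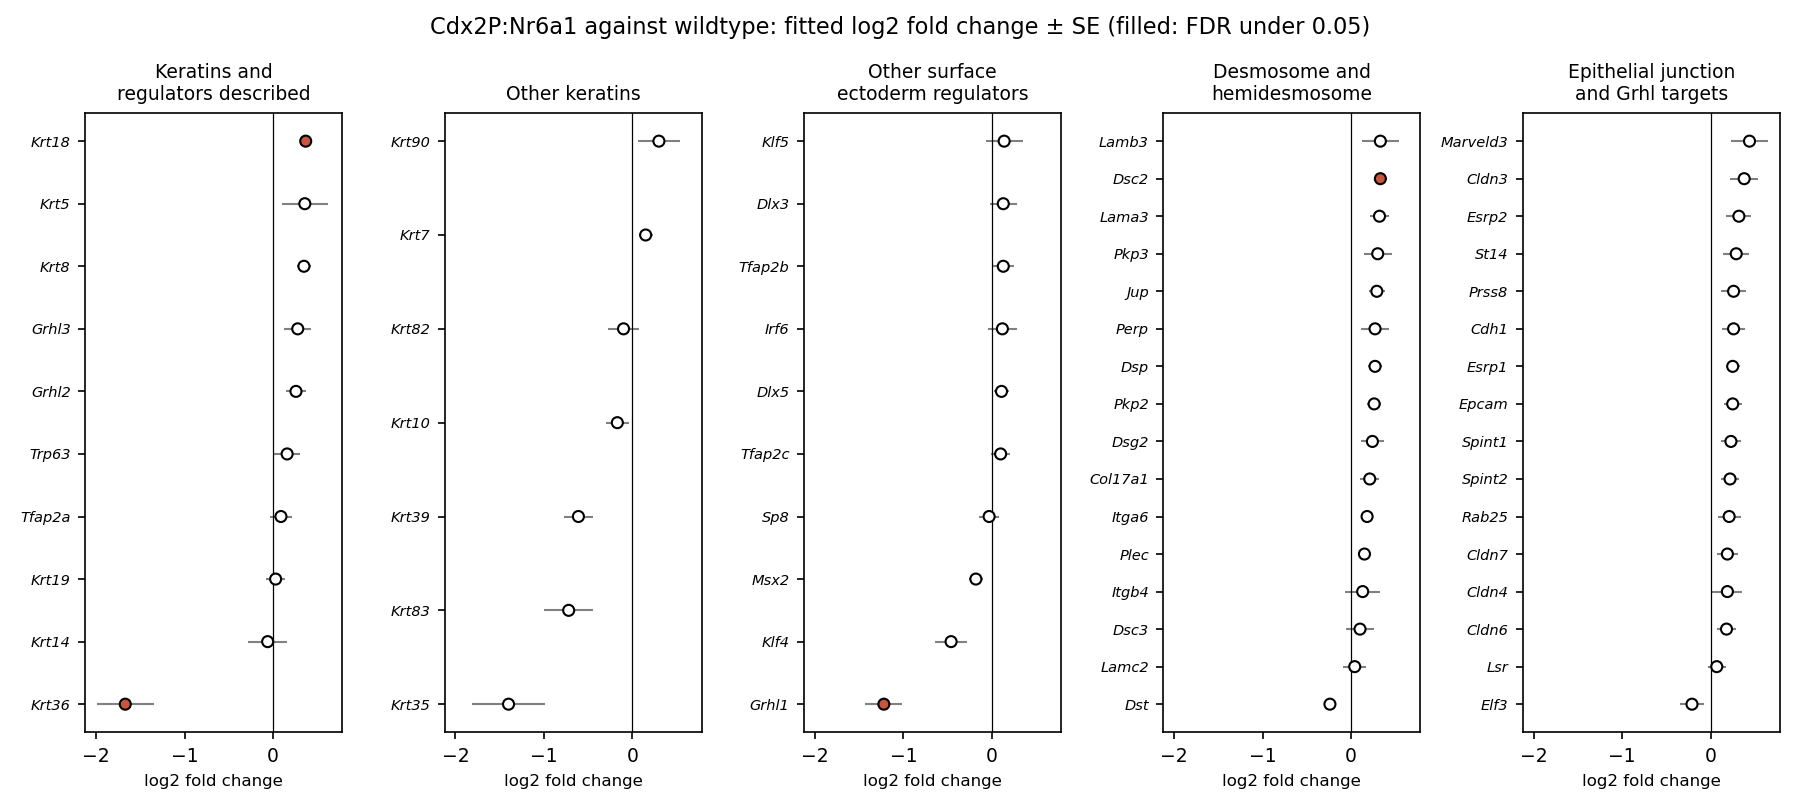
Log2 difference (Cdx2P:Nr6a1 minus wildtype) with bars of 1 SE for the members and for the genes tested in the other lists. Krt36 is the lowest member at -1.67, and most genes of the desmosome and junction lists lie a little above 0.

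Among the 48 other keratins, 7 were tested and edgeR's quasi-likelihood test called 0, with 3 lower and 0 higher at an unadjusted p under 0.05 (4.99% and 5.54% of all genes tested). DESeq2 called 1 of the 7 (Krt35) and edgeR's likelihood ratio test 2 (Krt35 and Krt39). Their median log2 difference was -0.17. The 3 most abundant were Krt7 (0.15 ± 0.08, SE), a type II keratin of simple epithelia, the hair keratin Krt82 (-0.10 ± 0.18) and Krt10 of the upper epidermis (-0.17 ± 0.13), each overlapping between the groups. Of all 54 keratins in the table, 24 had at most 10 counts in every library, and 7 of those had none.

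Krt35, Krt39 and Krt83 were the 3 with an unadjusted p under 0.05 and are named for that, after their values were seen. Krt35, a hair keratin that lies beside Krt36 at chr11:100092193-100096241, was at 4.47, 2.05, 1.81 and 2.18 CPM in wildtype and at 1.22 and 0.805 CPM in Cdx2P:Nr6a1. Krt39, on chromosome 11, was at 2.73, 2.93, 2.93 and 2.58 CPM against 1.87 and 1.79 CPM. Krt83, a type II hair keratin on chromosome 15, was at 7.67, 4.38, 3.59 and 4.38 CPM against 2.88 and 3.16 CPM. In each of the 3 both transgenic libraries lay below all wildtype libraries, as for Krt36. Krt35 and Krt39 were under the CPM minimum in both transgenic libraries and were tested through the wildtype libraries alone, so their being lower is a description. By edgeR's quasi-likelihood test with Benjamini-Hochberg adjustment, Krt35 differed by -1.40 ± 0.41 (log2, SE; adjusted p = 0.174), Krt39 by -0.61 ± 0.16 (0.116) and Krt83 by -0.72 ± 0.28 (0.373), so none was called. Over 13 alternatives the adjusted p ran from 8.24e-08 to 0.533 for Krt35, from 0.0319 to 0.366 for Krt39 and from 0.000931 to 0.867 for Krt83. Of the 75-base windows of Krt83, 11.9% occur in other transcripts, including Krt81 and Krt86.

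Summed over all keratins, the level was 251, 219, 228 and 249 CPM in wildtype and 286 and 257 CPM in Cdx2P:Nr6a1. The simple epithelial genes Krt8, Krt18, Krt19 and Krt7 gave 79.2% to 82.8% of it in wildtype and 85.4% and 84.3% in Cdx2P:Nr6a1. The groups did not overlap in either measure, and the keratin total in both was mostly that of these 4 genes. Both measures contain Krt8 and Krt18, which were chosen on this contrast, so the gap is a description. The 48 other keratins summed to 58.7 to 67.5 CPM in wildtype and to 65.7 and 58.8 CPM in Cdx2P:Nr6a1, which overlapped.

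Of 14 other regulators of surface ectoderm, 10 were tested and 1 was called (1.59% of all genes tested were), with a median log2 difference of 0.10. By edgeR's quasi-likelihood test 0 were higher and 2 lower at an unadjusted p under 0.05 (5.54% and 4.99% of all genes tested). The 2 were Grhl1, the gene called, and Klf4, looked at after its values were seen. Klf4 was at 2.47 to 3.39 CPM in wildtype and at 2.01 and 2.46 CPM in Cdx2P:Nr6a1 (-0.46 ± 0.18, log2, SE), not called. Grhl1, the third grainyhead-like gene and a regulator of desmosomal cadherins in epidermis, was at 2.58, 3.16, 2.39 and 2.47 CPM in wildtype and at 0.969 and 1.28 CPM in Cdx2P:Nr6a1. Both transgenic libraries lay well below the wildtype range, whereas the differences of Grhl2 and Grhl3 were positive and not called. The means were 2.65 ± 0.348 (SD, n = 4) and 1.13 ± 0.221 CPM (SD, n = 2), and the log2 difference was -1.22 ± 0.21 (SE), with an adjusted p of 0.0266 by edgeR's quasi-likelihood test with Benjamini-Hochberg adjustment. Like Krt36, Grhl1 was under the CPM minimum in both transgenic libraries and was tested through the wildtype libraries alone, so this call too is a description. Over 13 alternatives the adjusted p ran from 2.34e-06 to 0.172, and the call was lost without wildtype replicate 1 (log2 difference -1.24), 2 (-1.12) or 4 (-1.26) and without Cdx2P:Nr6a1 replicate 1 (-1.05) or 2 (-1.45).

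Of 18 desmosome and hemidesmosome genes, which anchor keratin filaments to the cell surface, 16 were tested. The log2 difference was positive for 15 and negative for 1, with a median of 0.25, where 6326 of all 12733 genes tested were positive. Both transgenic libraries lay above all wildtype libraries for 8 and below them for 1 (9.46% and 9.08% of all genes tested). By edgeR's quasi-likelihood test 6 were higher and 1 lower at an unadjusted p under 0.05 (5.54% and 4.99% of all genes tested). Dsc2, a desmosomal cadherin, was at 48.3, 43.6, 47.9 and 50.4 CPM in wildtype and at 62.0 and 57.2 CPM in Cdx2P:Nr6a1. It rose by 0.33 ± 0.07 (log2, SE), with an adjusted p of 0.0478 by edgeR's quasi-likelihood test with Benjamini-Hochberg adjustment. Dsc2 was the only gene of the list called, where 1.59% of all genes tested were. That call was lost whichever library was left out, where the log2 difference lay between 0.27 and 0.38, and the adjusted p ran from 0.000148 to 0.317 over 13 alternatives. Desmoplakin (Dsp), which links keratin to the desmosome and was looked at after its values were seen, was at 144 to 174 CPM in wildtype and at 205 and 189 CPM in Cdx2P:Nr6a1, with a log2 difference of 0.27 ± 0.08 (SE). Dst, a plakin of the hemidesmosome and the gene of the list with a negative difference, also looked at afterwards, was at 186 to 215 CPM in wildtype and at 171 and 172 CPM in Cdx2P:Nr6a1 (-0.24 ± 0.06). Neither was called by edgeR's quasi-likelihood test, and both were by DESeq2 and the likelihood ratio test.

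Of 16 epithelial junction genes and targets of grainyhead-like factors, all were tested and edgeR's quasi-likelihood test called 0, with 4 higher and 0 lower at an unadjusted p under 0.05 (5.54% and 4.99% of all genes tested). DESeq2 and the likelihood ratio test also called 0. The log2 difference was positive for 15, with a median of 0.24, where 6326 of all 12733 genes tested were positive. Both transgenic libraries lay above all wildtype libraries for 1, beside 9.46% of all genes tested. The 3 most abundant were E-cadherin (Cdh1, 0.26 ± 0.13, SE), Cldn6 (0.18 ± 0.11) and the surface protein Epcam (0.25 ± 0.10), all overlapping between the groups.

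The log2 differences of Krt8 (0.35) and Krt18 (0.37) were somewhat above the median of those epithelial genes. The members were also set against Epcam within each library, a ratio chosen after values were seen. Krt8 over Epcam was 1.01, 0.938, 0.885 and 0.850 in wildtype and 0.981 and 0.992 in Cdx2P:Nr6a1. Krt18 over Epcam was 0.690, 0.679, 0.592 and 0.580 against 0.639 and 0.735. The groups, which did not overlap in CPM, overlapped in these ratios, whereas Krt36 over Epcam stayed below the wildtype range at 0.0602, 0.0388, 0.0314 and 0.0248 against 0.00897 and 0.0112. Grhl1 over Epcam was likewise lower, at 0.0270 to 0.0458 in wildtype and 0.00965 and 0.0146 in Cdx2P:Nr6a1. With Cdh1 in place of Epcam all 4 genes kept the same position.

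**Figure D3:**
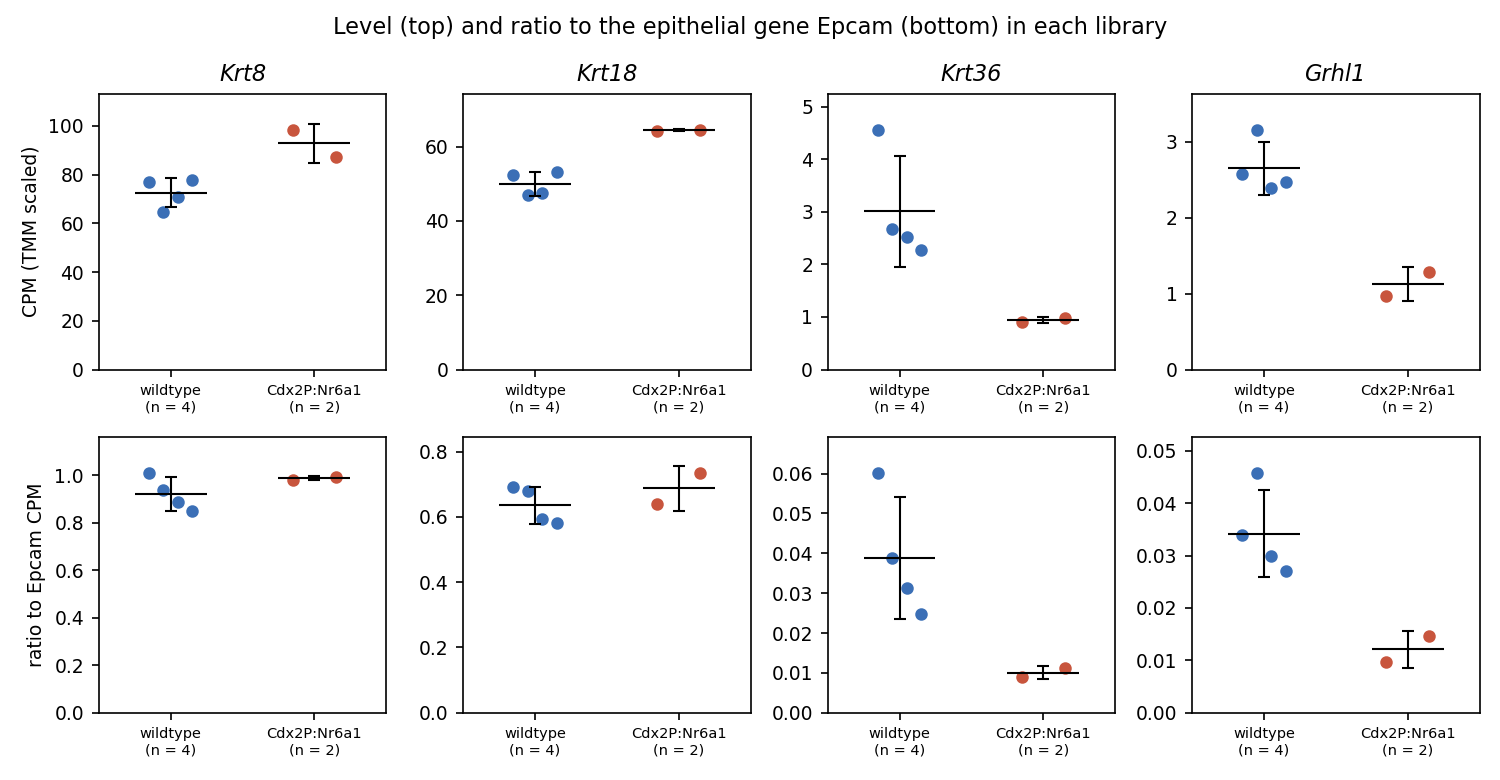
Level in CPM (top) and ratio to the CPM of Epcam (bottom) for Krt8, Krt18, Krt36 and Grhl1, with a point per library, the group mean and bars of 1 SD. The groups separate in the level of all 4 genes and in the ratio of Krt36 and Grhl1, while the ratios of Krt8 and Krt18 overlap.

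Markers of the cell types that could hold these genes were summed per library. The 9 surface ectoderm markers, which include Trp63, Krt5 and Krt14, summed to 327 to 431 CPM in wildtype and 396 and 444 CPM in Cdx2P:Nr6a1. The gut endoderm markers, 7 in number, summed to 148 to 182 CPM in wildtype and 169 and 201 CPM in Cdx2P:Nr6a1, and the 5 notochord markers to 54.7 to 72.2 and 63.1 and 77.3 CPM. Each of these sums overlapped between the groups and was highest in Cdx2P:Nr6a1 replicate 1, the library with the most Krt8, Krt19, Grhl2 and Grhl3. Most of the gut endoderm sum was 1 gene, Cldn6, which is also in the list of epithelial junction genes. Cldn6 was at 115 to 146 CPM in wildtype and at 165 and 135 CPM in Cdx2P:Nr6a1 replicates 1 and 2. Hnf4a, a gut endoderm marker, had 94 counts (1.68 CPM) in wildtype replicate 2, the wildtype library lowest for most members, and 0 to 20 counts in the others. Mesothelial markers were near 0 at 1.66 to 2.70 CPM over all libraries. Endothelial markers summed to 162 to 216 CPM, macrophage markers to at most 24.5 CPM and primitive erythroid markers to 8100 to 19700 CPM, with both transgenic libraries inside or across the wildtype range. By edgeR's quasi-likelihood test 0 markers of these lists were called, and among the notochord markers 1 was higher at an unadjusted p under 0.05. DESeq2 and the likelihood ratio test called 0 too, whereas without the filter on low counts the markers called included Perp, Msln and Hba-x. The part of tissue makeup in the members' values was not tested.

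The genes whose profile over the 6 libraries was most like that of 3 members were found among 12732 genes, by the root mean square difference of centred log2 CPM. For Krt36 they were Dapl1 (0.110), Hoxb13 (0.199) and the retinoic acid-degrading enzyme Cyp26b1 (0.282). Dapl1 was at 5.60, 3.30, 3.50 and 3.36 CPM in wildtype and 1.10 and 1.39 CPM in Cdx2P:Nr6a1, so it too was highest in wildtype replicate 1. Like Krt36, Dapl1 was under the CPM minimum in both transgenic libraries and passed the filter through the wildtype libraries alone. For Krt8 they were the orphan receptor Gprc5c (0.0372), the adaptor protein Grb7 (0.0374) and Dsc2 (0.0427), and Gprc5c was at 71.1 to 86.7 CPM in wildtype and 104 and 92.7 CPM in Cdx2P:Nr6a1. For Trp63 they were Enpp1 (0.0422), Fgd2 (0.0565) and Lrrc75b (0.0673), each highest in wildtype replicate 4 and lowest in wildtype replicate 2. The value measures likeness over 6 points that share library and genotype. Since the genes were picked by this value, the order of libraries that they share with a member is a description.

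**Figure D4:**
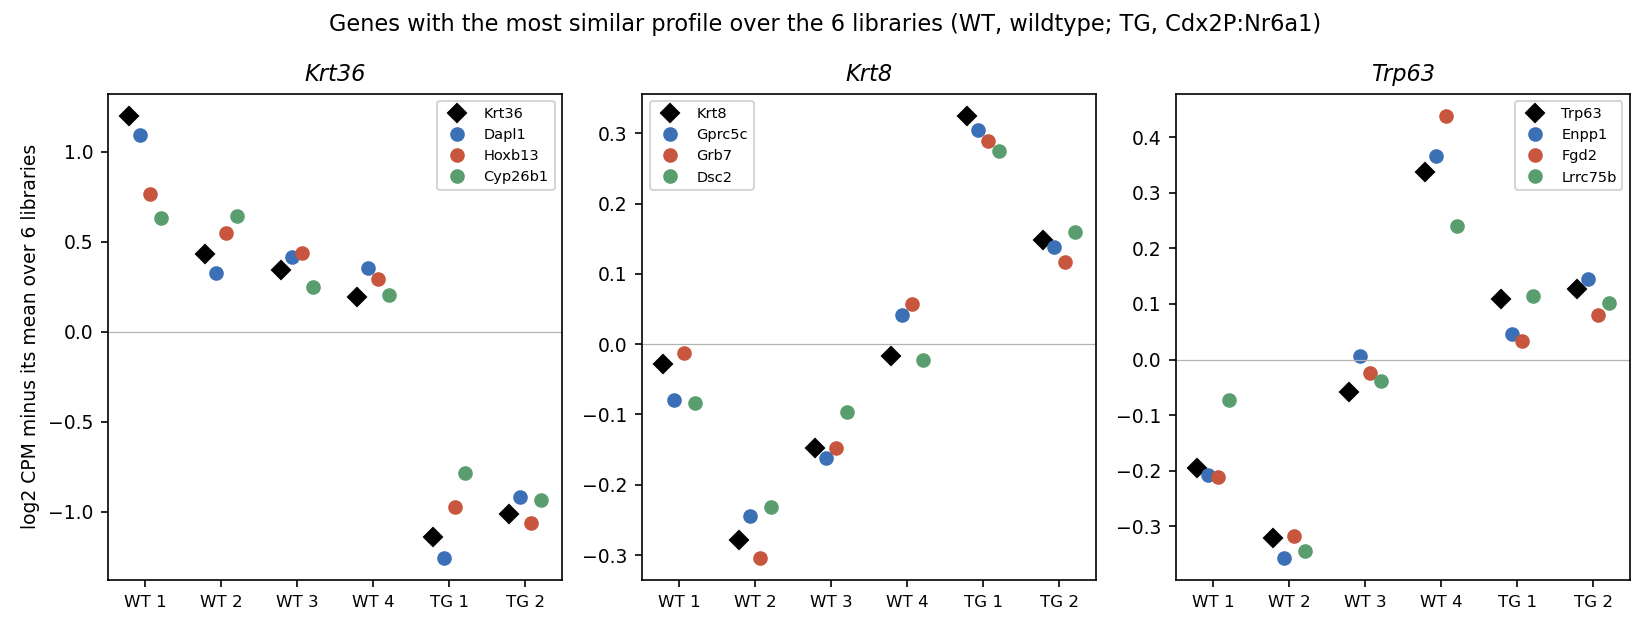
Log2 CPM minus its mean over the 6 libraries for Krt36, Krt8 and Trp63 (black diamonds) and the 3 genes closest to each (coloured points), by library (WT, wildtype; TG, Cdx2P:Nr6a1). The Krt36 group is low in both TG libraries, the Krt8 group is high in both, and the Trp63 group is highest in WT 4.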

How the data were processed

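The authors aligned the reads of each stranded mRNA library (75 bp, single-end) with STAR to mm10 and deposited raw counts per gene, with no normalization. The counting program and its settings are not given in the sources used here. The 10 members have the same positions in GENCODE M21. A second deposited table, the authors' edgeR comparison (fold changes, p-values, FDR, counts and CPM for a subset of genes), was not used.

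A gene had to exceed both 10 counts and 2 CPM in at least 2 libraries, and those genes were tested with edgeR 4.0.16 (R 4.3.3): TMM scaling, the quasi-likelihood test over all 6 libraries with no covariate, and Benjamini-Hochberg adjustment over the 12733 genes tested. The biological coefficient of variation was 9.40%. The SE is the log2 difference divided by the square root of F. Tables and plots used Python 3.11.15. The procedure was tested on simulated data. The precision of a level is limited by its count, and counting intervals cover counting error only.

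The members, lists and tests were chosen with earlier results of these data known. Genes named are the members, Nr6a1, the called or otherwise the 3 most abundant genes of each list, cell type markers and the 3 genes most like Krt36, Krt8 and Trp63. Any other gene was named after its values were seen. Some marker results are not reported here. The alternatives, 13 in number, were RLE scaling, library totals only, no filter, the filterByExpr filter, the likelihood ratio test, DESeq2 1.42.0, the replicate number as a block and each library left out in turn. Shared reads were gauged by 75-base windows found in transcripts of other genes.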

Additional observations from a re-analysis of the deposited data

Results flagged for a closer look

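Krt35 stood out for a sample far from the others. Its level of 4.47 CPM in wildtype replicate 1 lay apart from the other wildtype libraries, at 2.05, 1.81 and 2.18 CPM, by Dixon's test at the 95% level. Chance alone marks about 1 in 20 groups. The same library was also the highest for Krt36 and Krt83.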

How the results depend on the processing

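With 2 Cdx2P:Nr6a1 embryos the calls depended on single libraries. With 1 left out, the lone library was assumed to vary like the others. Leaving out each library in turn gave 61 to 175 called genes (203 with all), 0 to 2 members, 0 to 1 other regulators, 0 desmosome genes, 0 junction genes and 0 other keratins. The count of all genes called was 876 without the low-count filter, 401 with the likelihood ratio test and 477 with DESeq2. Without the filter 2 other keratins, 2 other regulators, 5 desmosome genes and 7 junction genes were called. The likelihood ratio test called 2 other keratins and 3 desmosome genes, DESeq2 called 1 and 3, and the filterByExpr filter called 0 desmosome genes.

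The replicate numbers were used as a block in 1 alternative, although they do not pair the embryos: deviations of same-numbered libraries correlated at 0.270 and -0.226. With the block 442 genes were called, 6 of them members (Krt36, Krt8, Krt18, Krt5, Trp63 and Grhl2), with 2 other keratins, 2 other regulators, 6 desmosome genes and 6 junction genes, and among the markers Emcn, Frem2 and Perp. The log2 difference of Krt19 lay between -0.20 and 0.24 and that of Krt14 between -0.15 and 0.14 as single libraries were left out. Krt19 turned to -0.01 and Krt14 to 0.11 on the log2 scale with the block, Krt19 to -0.02 and Krt14 to 0.14 without wildtype replicate 4, and Krt19 to -0.20 without Cdx2P:Nr6a1 replicate 1. Of 130 log2 differences of members under alternatives, 111 kept their direction and side of the threshold, 7 passed it newly, 7 lost it and 5 turned direction. Krt36 was called in 10 of 13 alternatives (-1.87 to -1.40), Krt18 in 9 (0.34 to 0.39) and Krt8 in 4 (0.26 to 0.44). The cause of these changes was not tested. Depth limits Krt36 most among the members, since its counts were the lowest.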

Other observations

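Hoxc13 and Foxn1, transcription factors needed for hair keratin expression in the hair follicle, were looked at after the values of Krt36 were seen. Hoxc13 was at 279, 254, 258 and 241 CPM in wildtype and at 148 and 128 CPM in Cdx2P:Nr6a1, below all wildtype libraries. It fell by 0.91 on the log2 scale (SE 0.07), with an adjusted p of 0.00131 by edgeR's quasi-likelihood test with Benjamini-Hochberg adjustment. Foxn1 was at 4.08, 3.09, 3.09 and 2.76 CPM in wildtype and at 2.14 and 2.68 CPM in Cdx2P:Nr6a1. It too lay below all wildtype libraries, replicate 2 only narrowly, and its log2 difference of -0.42 ± 0.19 (SE) was not called. A link between these genes and Krt36 was not tested.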
